A study of Mus musculus with 9 samples.

Results

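The genes described here encode proteins of neurotransmitter release and of the synaptic scaffold. They are 31 genes chosen by symbol, as a list of vesicle proteins, release machinery, neurexins, neuroligins and postsynaptic scaffolds. All 31 were among the 34714 gene symbols of the deposited count table, and all 31 had enough counts to be among the 18644 genes tested. The samples were cortex of mice (Mus musculus), sequenced as bulk poly(A) RNA, with 3 libraries in each of 3 groups. Naive mice, named Control in the titles, are the reference. The second group had EAE (experimental autoimmune encephalomyelitis), in which immune cells attack myelin and which serves as a mouse model of multiple sclerosis. Mice of the third group had EAE and received Au18(L-NIBC)14, a gold nanocluster with N-isobutyryl-L-cysteine ligands, and are called treated EAE below. The sources used here do not give strain, sex, age, how EAE was induced, the dose or when cortex was collected. No label says whether a library is 1 animal or a pool, so the p-values measure the spread between these libraries.

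At a chemical synapse, transmitter is packed into vesicles, and calcium entry at the active zone triggers their fusion with the presynaptic membrane. Fusion is driven by the SNARE proteins synaptobrevin, syntaxin and SNAP25, primed by Munc13 and RIM proteins and timed by synaptotagmin and complexin. Across the cleft, presynaptic neurexins bind postsynaptic neuroligins, and PSD-95, SAPAP, Shank and Homer proteins link these and the glutamate receptors to the cytoskeleton. In cortex most synapses are glutamatergic, marked by the vesicular glutamate transporter Slc17a7, and the rest are mainly GABAergic, marked by Slc32a1.

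Upstream sequences are printed for 5 members, because Stx1a, Syt1, Syn1 and Unc13a had the smallest p-values in both comparisons with EAE and Bsn had the smallest in treated against naive. They are the 250 bases before the first listed start of each gene in RefSeq for GRCm38.p6, 5′ to 3′ on the gene's own strand. That start need not be the outermost one of the gene. The last bases of the windows of Syt1, Unc13a and Bsn lie within the gene limits given below, with the second NRF1 match of Bsn among them. Capitals mark exact matches, on either strand, to the GC box GGGCGG, the cyclic AMP response element TGACGTCA or the NRF1 core GCATGCGC.
Stx1a, chr5:135023232-135023481, plus strand: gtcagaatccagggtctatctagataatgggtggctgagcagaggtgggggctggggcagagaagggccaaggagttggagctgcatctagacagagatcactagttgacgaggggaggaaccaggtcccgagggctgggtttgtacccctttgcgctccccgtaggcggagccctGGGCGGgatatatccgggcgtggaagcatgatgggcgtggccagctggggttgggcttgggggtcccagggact
Syt1, chr10:109010976-109011225, minus strand: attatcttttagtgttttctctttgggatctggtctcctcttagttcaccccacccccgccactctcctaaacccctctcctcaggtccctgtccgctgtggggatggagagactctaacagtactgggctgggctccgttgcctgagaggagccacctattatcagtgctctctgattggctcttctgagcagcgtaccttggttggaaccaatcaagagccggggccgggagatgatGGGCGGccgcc
Syn1, chrX:20920919-20921168, minus strand: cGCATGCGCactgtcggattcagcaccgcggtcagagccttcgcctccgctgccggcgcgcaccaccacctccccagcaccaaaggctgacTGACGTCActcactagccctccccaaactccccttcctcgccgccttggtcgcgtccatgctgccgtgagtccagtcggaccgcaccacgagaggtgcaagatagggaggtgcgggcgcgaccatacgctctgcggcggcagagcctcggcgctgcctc
Unc13a, chr8:71671758-71672007, minus strand: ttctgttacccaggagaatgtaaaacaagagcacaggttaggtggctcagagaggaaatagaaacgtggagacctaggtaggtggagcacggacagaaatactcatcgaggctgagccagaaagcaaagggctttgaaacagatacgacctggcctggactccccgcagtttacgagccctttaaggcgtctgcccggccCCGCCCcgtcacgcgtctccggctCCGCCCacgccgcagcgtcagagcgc
Bsn, chr9:108190384-108190633, minus strand: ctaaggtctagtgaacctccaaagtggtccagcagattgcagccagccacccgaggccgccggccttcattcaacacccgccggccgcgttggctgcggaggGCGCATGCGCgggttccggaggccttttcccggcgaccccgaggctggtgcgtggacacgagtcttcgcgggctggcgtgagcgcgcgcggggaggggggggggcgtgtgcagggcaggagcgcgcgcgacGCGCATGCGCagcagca

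A start was listed for 24 of the 31 members; Snap25, Vamp2, Rims2, Nrxn2, Nlgn3, Shank1 and Shank2 were not matched. The GC box was in 14 of 24 member windows (58.3%) and in 32.9% of 27025 windows of all genes. Base composition differed along with it, since member windows had a median GC content of 61.2% and all windows one of 52.0%. The full cyclic AMP response element was in the window of Syn1 alone among the 24, and in 1.62% of all windows. Its first 5 letters, TGACG, which overlap the full element, were in 5 members (Stx1a, Rab3a, Unc13a, Homer1 and Syn1; 20.8%) and in 17.9% of all windows. The NRF1 core was in 2 members, Bsn and Syn1 (8.33%), and in 2.32% of all windows; in Bsn its matches on the 2 strands overlap. TATAAA was in Sv2b only (4.17% of members and 13.0% of all windows). Not every window lies upstream of the whole gene. Those of Slc32a1, Nlgn1, Nrxn3, Cplx2 and Shank3 lie within the outer limits of the gene. Those of Syt1, Unc13a, Bsn and Pclo do so in part, and the windows of all genes were not checked for this. A match is a description of these letters only.

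Total counts ranged from 26972179 to 45243553 per library, and a member had between 236 and 101305 counts in a library. Levels are CPM values, counts scaled to library size after TMM normalization. The 12 listed markers of cortical excitatory neurons were present in every library, with a summed level between 4217 and 5250.1 CPM, and of the cerebellar markers Pcp2 and Gabra6 were too low to be tested. The summed level of 11 striatal markers varied within groups, from 315 to 2175 CPM among naive libraries alone. The summed level of 7 choroid plexus markers was 1344 CPM in EAE replicate 1 and at most 343 CPM in the other libraries. That of 10 myelin markers was lowest in treated replicate 1 (2939 CPM) and highest in treated replicate 3 (9668 CPM).

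Levels of different members were compared per kilobase of exon, with lengths from GENCODE M21, since the annotation used for counting is not given in the sources used here. In naive cortex Snap25 and the complexins led. Snap25 was highest at 309 ± 23.4 CPM per kb (mean ± SD, n = 3), followed by Cplx1 (262 ± 34.0), Cplx2 (258 ± 38.7), Slc17a7 (245 ± 14.6) and Syp (226 ± 9.55). Of the 30 pairs of neighbours in this order, 10 had no overlap between their naive libraries, among them Syn1 (172 ± 13.2) above Stx1a (120.0 ± 7.24), Stx1a above Sv2a (97.9 ± 7.78) and Sv2a above Syn2 (77.3 ± 6.65). The first 4 genes of the order overlapped with their next neighbour. Scaffold genes lay lower, from Shank1 (67.9 ± 4.98) to Homer1 (11.1 ± 1.96). Each length merges all annotated exons of a gene and can exceed that of an expressed transcript, so the order also depends on the annotation. Dlg4, with 13.3 kb, was at 802 CPM in naive and 60.5 CPM per kb. Stx1a, with 2.67 kb, was at 320 CPM and 120.0 CPM per kb. The neuroligins spanned a wide range, with Nlgn2 of inhibitory synapses at 53.6 ± 2.83, Nlgn3 at 7.68 ± 0.508 and Nlgn1 of excitatory synapses at 6.12 ± 0.482 CPM per kb. The lowest member was the vesicle protein gene Sv2c (1.62 ± 0.839). The ratio of Slc17a7 to Slc32a1 per kb lay between 5.72 and 9.37 over the 9 libraries, with groups that overlapped.

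**Figure D1:**
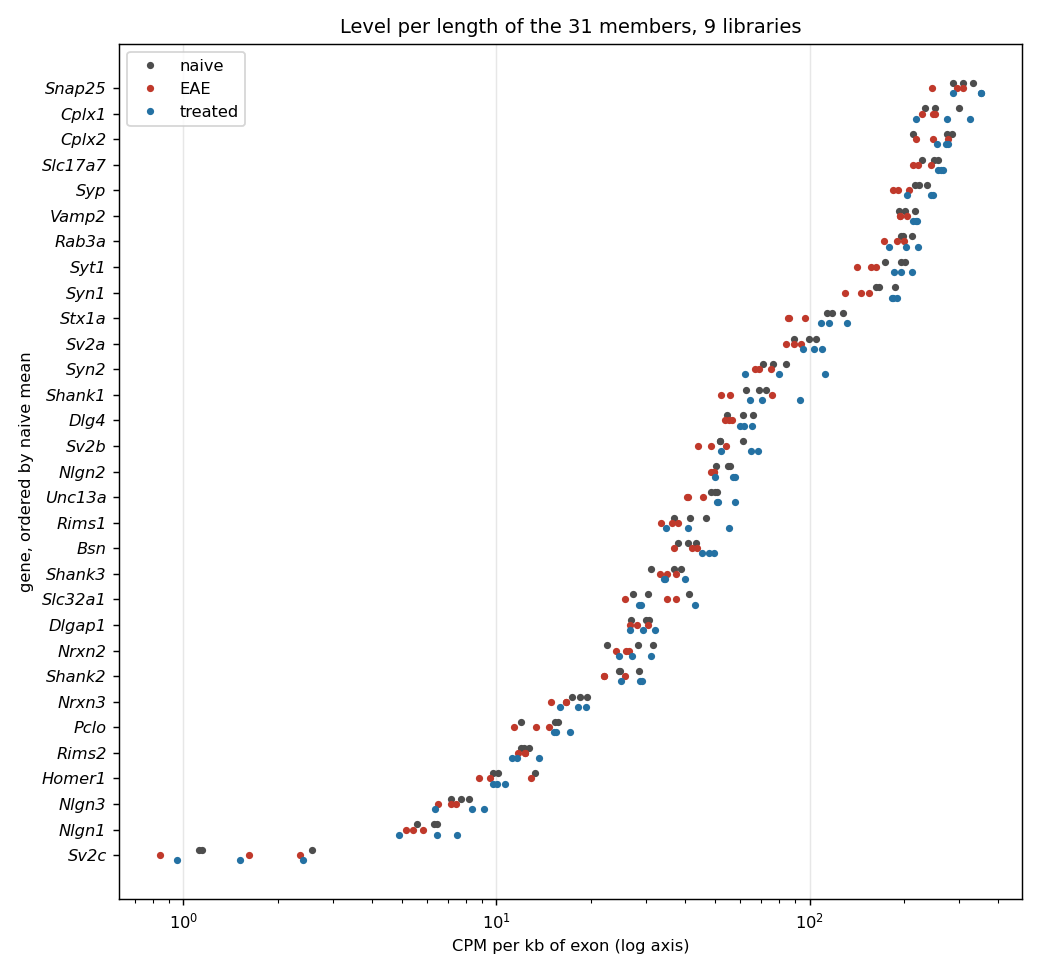
Level per length (CPM per kb of exon, log axis) of each of the 31 genes, 1 point for each of the 9 libraries, ordered by the naive mean. Snap25 is at the top and Sv2c at the bottom, and points of the 3 groups overlap for most genes.

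EAE and naive cortex were compared to find the changes that come with disease. Most members had a slightly lower mean in EAE, but no member passed the test. The median log2 fold change was -0.13 over the 31 members and -0.01 over all genes tested. A value below 0 was found for 30 of 31 members, against 51% of all genes, and above 0 for 1, Bsn, against 49%. Of the genes at or above the level of the lowest member, 54.2% were below 0. With edgeR's quasi-likelihood test, 0 of 31 members passed an adjusted p of 0.05, where 0.987% of all genes did (0.252% lower and 0.735% higher). At an unadjusted p under 0.05 there were 6 of 31 members, against 16.4% of all genes in either direction. All 6 were lower (6.97% of all genes were) and 0 higher (9.42% of all genes were). The 3 EAE libraries lay below the 3 naive ones without overlap for 7 members, Syp, Syt1, Syn1, Stx1a, Unc13a, Nrxn3 and Nlgn2, against 11.8% of all genes and 14.7% of the genes at or above the level of the lowest member. They lay above for 0 members, against 12.2% of all genes. DESeq2 called Stx1a (adjusted p = 0.00132) and Syt1 (adjusted p = 0.0293) lower, in a test that called 5.43% of all genes, 1.77% lower and 3.66% higher.

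The size of these differences was modest. The largest was in Stx1a, whose mean CPM was 25.6% lower in EAE, and for 29 of 31 members the 95% interval of the log2 fold change lay within a 1.5-fold change in either direction. The exceptions were Stx1a and Sv2c. The median difference of the members from their naive means was -0.07 in EAE replicate 1, -0.19 in replicate 2 and -0.13 in replicate 3, and between -0.08 and 0.06 in the naive libraries, so that EAE replicate 1 was not below every naive library. EAE replicate 2 had the lowest level of 13 members among all 9 libraries. Without it the median was -0.12 with 27 members below 0, and without naive replicate 1 it was -0.09 with 25 below 0. Without EAE replicate 1, the library with the highest choroid plexus marker sum, it was -0.15 with 30 below 0.

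Markers of whole cell types were read beside the members. Of 16 neuronal markers outside the synapse (Rbfox3, Map2 and Nefl among them), 12 were below 0 in EAE against naive, with a median log2 fold change of -0.11, and 9 of 12 excitatory neuron markers were below 0 with a median of -0.22. Their summed levels overlapped between the groups, with 14042 to 16389.5 CPM in naive, 15324 to 16417 in EAE and 14015 to 16049 in treated EAE for the 16 neuronal markers. Those of the 12 excitatory neuron markers were 4217 to 4888 CPM in naive, 4427.5 to 4908 in EAE and 4457 to 5250 in treated EAE. For both lists the lowest and the highest sum were higher in EAE than in naive, unlike most of the single markers. Microglial markers were above 0 in 6 of 7 (summed level 273 to 335 CPM in naive, 302 to 602 in EAE and 311 to 369.9 in treated EAE), and none of the 7 was at 0 in any library. Astrocyte markers were above 0 in 5 of 8 (summed level 5117 to 5787 CPM in naive, 5181 to 7405 in EAE and 4552 to 6512 in treated EAE), with none at 0. Inhibitory neuron markers went both ways, with 5 of 10 below 0, a median of -0.02 and sums of 825 to 916 CPM in naive and 780.2 to 881 in EAE. The summed level of 5 endothelial markers did not overlap, at 179 to 182 CPM in naive and 184 to 272 in EAE, with 4 of 5 above 0. Nor did that of the cerebellar markers, at 134 to 156 CPM in naive and 113 to 125 in EAE, with 3 of the 4 tested below 0 and Gabra6 at 0 in a library. Markers of neighbouring tissue were mostly above 0 in EAE. All 7 choroid plexus markers were above 0 (median 1.74, sums of 211 to 297 CPM in naive and 208 to 1344 in EAE). All 8 hippocampal markers were above 0 (median 0.85), with sums that overlapped (169.8 to 227 CPM in naive, 212 to 232 in EAE and 107 to 271 in treated EAE) and with Dsp at 0 in a library. Thalamic markers were above 0 in 6 of 7 (sums of 127 to 192 CPM in naive and 186 to 197 in EAE) and striatal markers in 7 of 11, while 6 of 10 myelin markers were below 0 (median -0.32). The myelin sums of EAE, 5272 to 6184 CPM, lay within the naive range of 4829 to 7352 CPM. In bulk tissue, fewer cells of a type and less RNA per cell cannot be told apart, and the part of these markers in the members' values was not tested. Among the 9212 genes at or above the mean level of the lowest member, the median log2 fold change was -0.02 in EAE against naive. The median was -0.13 in the 16 members with longer exons and -0.13 in the 15 with shorter ones.

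**Figure D2:**
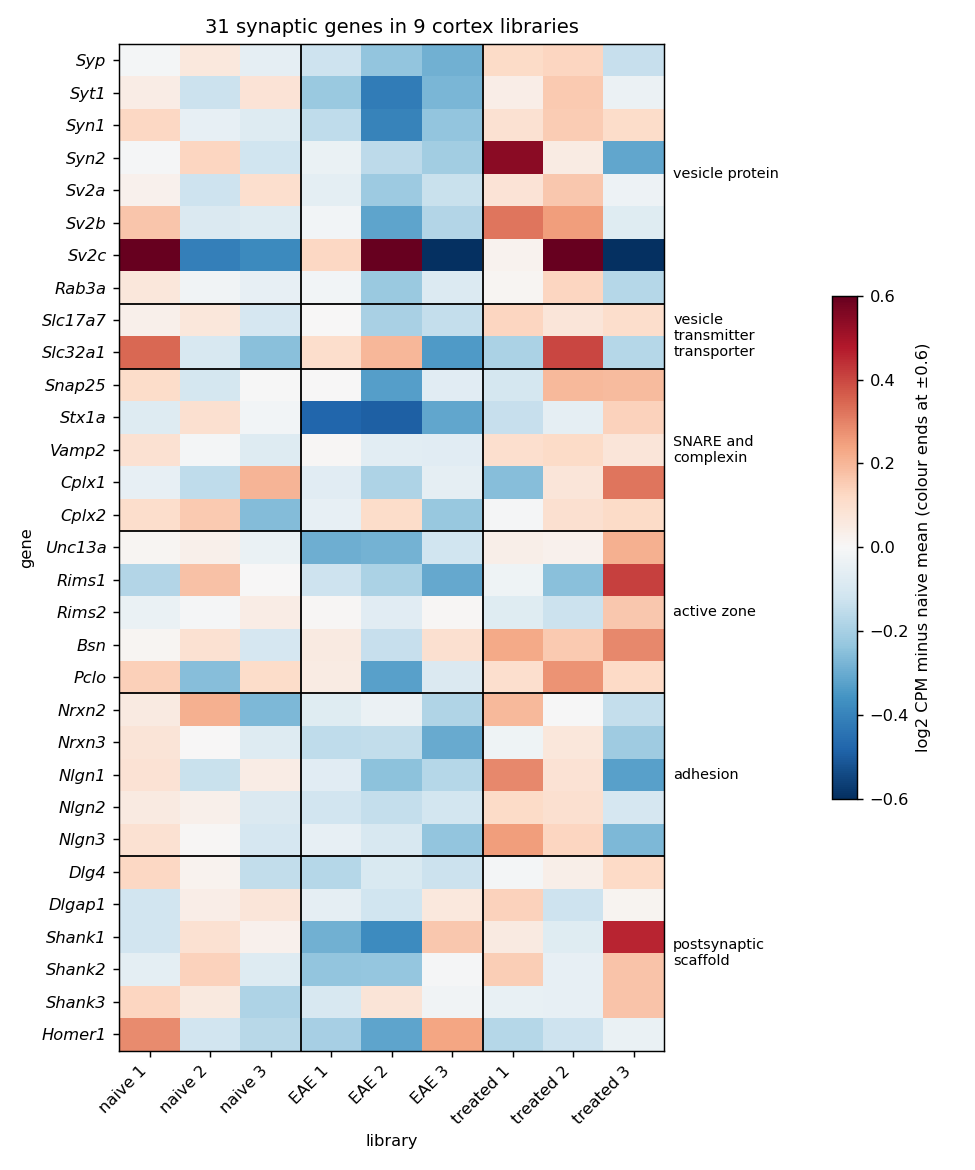
Log2 CPM of each of the 31 genes (rows, grouped by role) in each of the 9 libraries (columns), minus the gene's naive mean. Blue is lower and red higher, with the colour scale ending at 0.6 in both directions. Most rows are blue in the EAE libraries, most of all Stx1a, while Sv2c and Slc32a1 vary within every group.

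Treated and untreated EAE were compared to find what changed with the nanocluster in diseased animals. Most members had a higher mean in the treated libraries, again with no member past the threshold. The median log2 fold change was 0.20 over the 31 members and 0.0029 over all genes. A value above 0 was found for 30 of 31 members, against 50.6% of all genes, and below 0 for 1, Homer1, against 49.4%. Of the genes at or above the level of the lowest member, 55.6% were above 0. By edgeR's quasi-likelihood test 0 of 31 passed, where 0.22% of all genes did (0.0912% higher and 0.129% lower). At an unadjusted p under 0.05 there were 11 of 31 members, against 15.1% of all genes in either direction. All 11 were higher (7.43% of all genes were) and 0 lower (7.65% of all genes were). The treated libraries lay above the EAE libraries without overlap for 11 members, against 9.93% of all genes. Among the genes at or above the level of the lowest member this share was 12.5%. The 11 members were Syt1, Syn1, Sv2a, Slc17a7, Stx1a, Vamp2, Unc13a, Bsn, Pclo, Nlgn2 and Dlg4. The treated libraries lay below for 0 members, against 9.28% of all genes. DESeq2 called Syn1 (adjusted p = 0.00318), Stx1a (0.00403), Unc13a (0.00935) and Syt1 (0.0105) higher, in a test that called 3.91% of all genes, 1.8% higher and 2.12% lower. This comparison uses the same 3 EAE libraries as that with naive, so opposite signs in both are not independent of each other. For 25 of 31 members the 95% interval lay within a 1.5-fold change, the exceptions being Syn2, Sv2b, Sv2c, Stx1a, Rims1 and Shank1.

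Of the neuronal markers outside the synapse, 12 of 16 were above 0 in this comparison, with a median log2 fold change of 0.16. Microglial markers were below 0 in 6 of 7 and astrocyte markers in 6 of 8. Excitatory neuron markers were above 0 in 10 of 12 (median 0.19), inhibitory neuron markers in 6 of 10 (median 0.05), myelin markers in 6 of 10 (median 0.13) and cerebellar markers in 4 of 4 tested (median 0.24). Markers of neighbouring tissue were mostly lower in mean. All 7 choroid plexus markers were below 0 (median -2.41, sums of 208 to 1344 CPM in EAE and 161 to 279 in treated EAE), as were all 8 hippocampal markers (median -0.99). Thalamic markers were below 0 in 6 of 7, and their sums did not overlap, at 186 to 197 CPM in EAE and 138 to 161 in treated EAE. Endothelial markers were below 0 in 4 of 5 (median -0.06). All 11 striatal markers were below 0, with a median log2 fold change of -0.52 and sums of 315 to 2175 CPM in naive, 325 to 1837 in EAE and 473 to 1442 in treated EAE. The part of these in the members' values was not tested. Without EAE replicate 1 the members' median was 0.21, without EAE replicate 2 it was 0.17, without treated replicate 1 it was 0.19 and without treated replicate 3 it was 0.21.

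Treated EAE and naive cortex had means close to each other in most of these genes. The median log2 fold change was 0.05, with 26 of 31 members above 0 against 53.6% of all genes, and 5 below 0 (Rab3a, Stx1a, Rims2, Nrxn3 and Homer1) against 46.4%. By edgeR's quasi-likelihood test 0 of 31 passed, as did 0% of all genes, and by DESeq2 0 of 31 passed, with 0.0109% of all genes called. At an unadjusted p under 0.05 Bsn was higher (1 of 31, against 1.71% of all genes in either direction and 1.07% higher) and 0 members were lower, against 0.638%. The treated libraries lay above the naive ones without overlap for Slc17a7 and Bsn, 2 of 31 members, against 3.51% of all genes, and below them for 0, against 2.74%. For 30 of 31 members the 95% interval lay within a 1.5-fold change, Sv2c being the exception. A p that misses the threshold does not show that the groups are equal, and for Stx1a, for example, the interval of treated minus naive ran from -0.22 to 0.19.

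**Figure D3:**
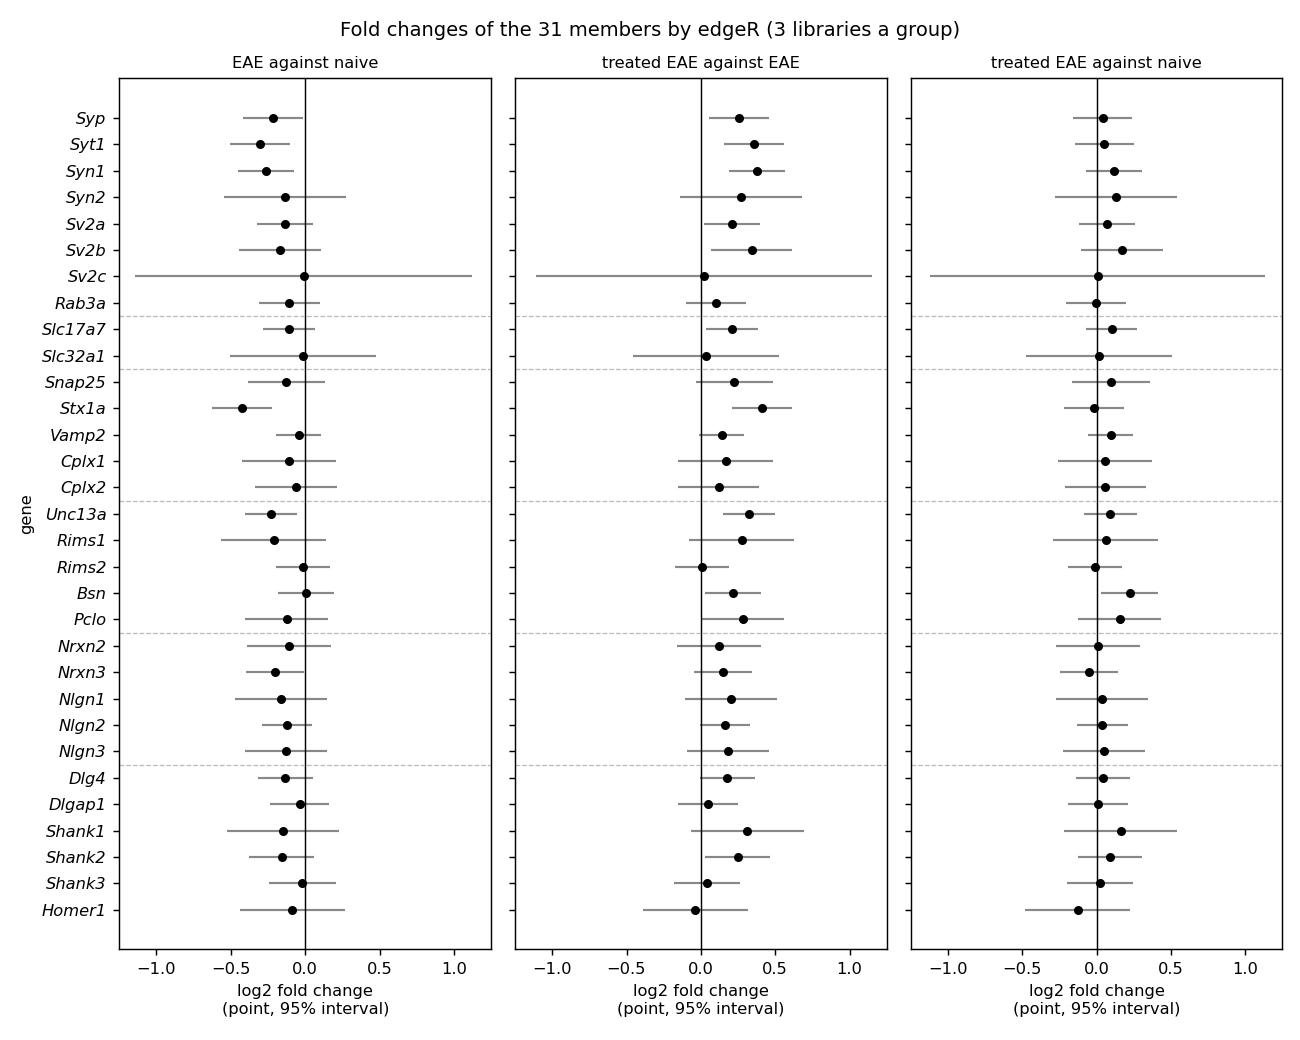
Log2 fold change of each of the 31 genes (point) with its 95% interval (line) in the 3 comparisons, 3 libraries a group, with the same axis in each panel. Points lie left of 0 in EAE against naive except for Bsn, right of 0 in treated against untreated EAE except for Homer1, and close to 0 in treated against naive.

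Among the vesicle proteins, Syt1 and Syn1 showed the clearest separation. Syt1, the calcium sensor for fast release (chromosome 10, 108497650 to 109010980, GRCm38), was at 1637, 1448 and 1679.8 CPM in naive replicates 1, 2 and 3, 1358, 1184 and 1311 CPM in EAE and 1629, 1768 and 1547 CPM in treated EAE. All 3 EAE libraries lay below all others. How many of all genes share this pattern, here and for the genes below, was not counted. Its log2 fold change was -0.31 in EAE against naive (SE 0.0897, edgeR adjusted p = 0.132) and 0.36 in treated against untreated EAE (SE 0.0898, edgeR adjusted p = 0.136). Syn1, a synapsin that tethers vesicles in the reserve pool (chromosome X, 20860511 to 20920918), was at 618, 548 and 538 CPM in naive, 510.0, 429.6 and 481 in EAE and 605, 629.6 and 611 in treated EAE. Its printed upstream window holds the full cyclic AMP response element. Here too every EAE library was below every other library, with log2 fold changes of -0.26 (SE 0.0845, edgeR adjusted p = 0.163) and 0.38 (SE 0.0845, edgeR adjusted p = 0.106). Syp, the vesicle membrane protein synaptophysin, was at 1169, 1231 and 1133 CPM in naive, 1081, 998 and 963 in EAE and 1275, 1287 and 1071 in treated EAE. EAE was below naive without overlap, but treated replicate 3 lay below EAE replicate 1.

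The other vesicle genes overlapped between EAE and naive. Sv2b, a vesicle glycoprotein, was at 514, 433 and 435 CPM in naive, 454, 368 and 407 in EAE and 574, 547 and 437 in treated EAE, with treated replicates 1 and 2 the highest of all. Its relative Sv2a went from 454 ± 36.0 CPM in naive to 412 ± 23.0 in EAE and 477 ± 32.2 in treated EAE (SD, n = 3 each). The treated values of Sv2a were above the EAE values without overlap (log2 fold change 0.21, 95% interval 0.02 to 0.40, edgeR adjusted p = 0.288). Rab3a, a small GTPase of vesicles, had means of 450.3 ± 19.3, 418 ± 29.7 and 448 ± 46.3 CPM. Syn2, the second synapsin, was at 539, 593 and 499 CPM in naive, 528, 486 and 470.0 in EAE and 790.0, 561 and 437 in treated EAE. Its highest and lowest libraries were both treated ones, and the 95% interval in treated against untreated EAE was -0.14 to 0.68.

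Of the transporters that fill vesicles, Slc17a7, which carries glutamate, was at 1345, 1382 and 1230.4 CPM in naive replicates 1, 2 and 3, 1319, 1152 and 1195 CPM in EAE and 1439, 1388 and 1417 CPM in treated EAE. The treated libraries were the highest 3 of the 9, and naive and EAE overlapped. Its log2 fold change was -0.11 in EAE against naive, 0.21 in treated against untreated EAE (edgeR adjusted p = 0.243) and 0.10 in treated against naive. Slc32a1, which carries GABA and glycine, was at 116, 85.2 and 76.3 CPM in naive, 98.0, 105 and 71.9 in EAE and 79.7, 120.2 and 80.8 in treated EAE. Its groups overlapped throughout, with log2 fold changes of -0.02 (95% interval -0.51 to 0.48) and 0.03.

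Of the SNARE genes, Stx1a, a syntaxin of the presynaptic membrane (chromosome 5, 135023482 to 135051100), had the smallest p of all members in both comparisons with EAE. It was at 303, 341 and 316 CPM in naive replicates 1, 2 and 3, 229.7, 228 and 257 CPM in EAE and 290.4, 307 and 351 CPM in treated EAE. The 3 EAE libraries lay below all 6 others, and its printed upstream window holds a GC box, as those of Syt1 and Unc13a do. The log2 fold change was -0.43 in EAE against naive (SE 0.0902, 95% interval -0.63 to -0.22, edgeR adjusted p = 0.0600), just over the threshold. It passed in 3 of 13 settings, among them DESeq2 and edgeR without a filter on low counts (adjusted p = 0.0454), over a range of 0.00132 to 0.196. In treated against untreated EAE the value was 0.41 (SE 0.0902, edgeR adjusted p = 0.102), and in treated against naive it was -0.02.

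The partners of Stx1a in the fusion complex had smaller fold changes. Snap25 was at 2264, 1947 and 2091 CPM in naive, 2102, 1669.8 and 2003 in EAE and 1947, 2402 and 2392 in treated EAE, and its groups overlapped (log2 fold change -0.13 in EAE against naive, SE 0.116). Vamp2, the vesicle SNARE synaptobrevin, was at 828, 770.1 and 737 CPM in naive, 780.0, 743 and 740.4 in EAE and 834, 842 and 818 in treated EAE. It had the narrowest 95% interval of all members, -0.20 to 0.11 in EAE against naive, and its treated values were above its EAE values without overlap (-0.01 to 0.29). The complexins, which clamp and activate the SNARE complex, overlapped in all groups. Cplx1 had means of 573 ± 74.4, 531 ± 26.2 and 596 ± 118 CPM and Cplx2 of 1269.7 ± 191, 1217 ± 143 and 1322 ± 60.5 CPM in naive, EAE and treated EAE. Whether Stx1a differed more than Snap25 or Vamp2 was not tested.

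**Figure D4:**
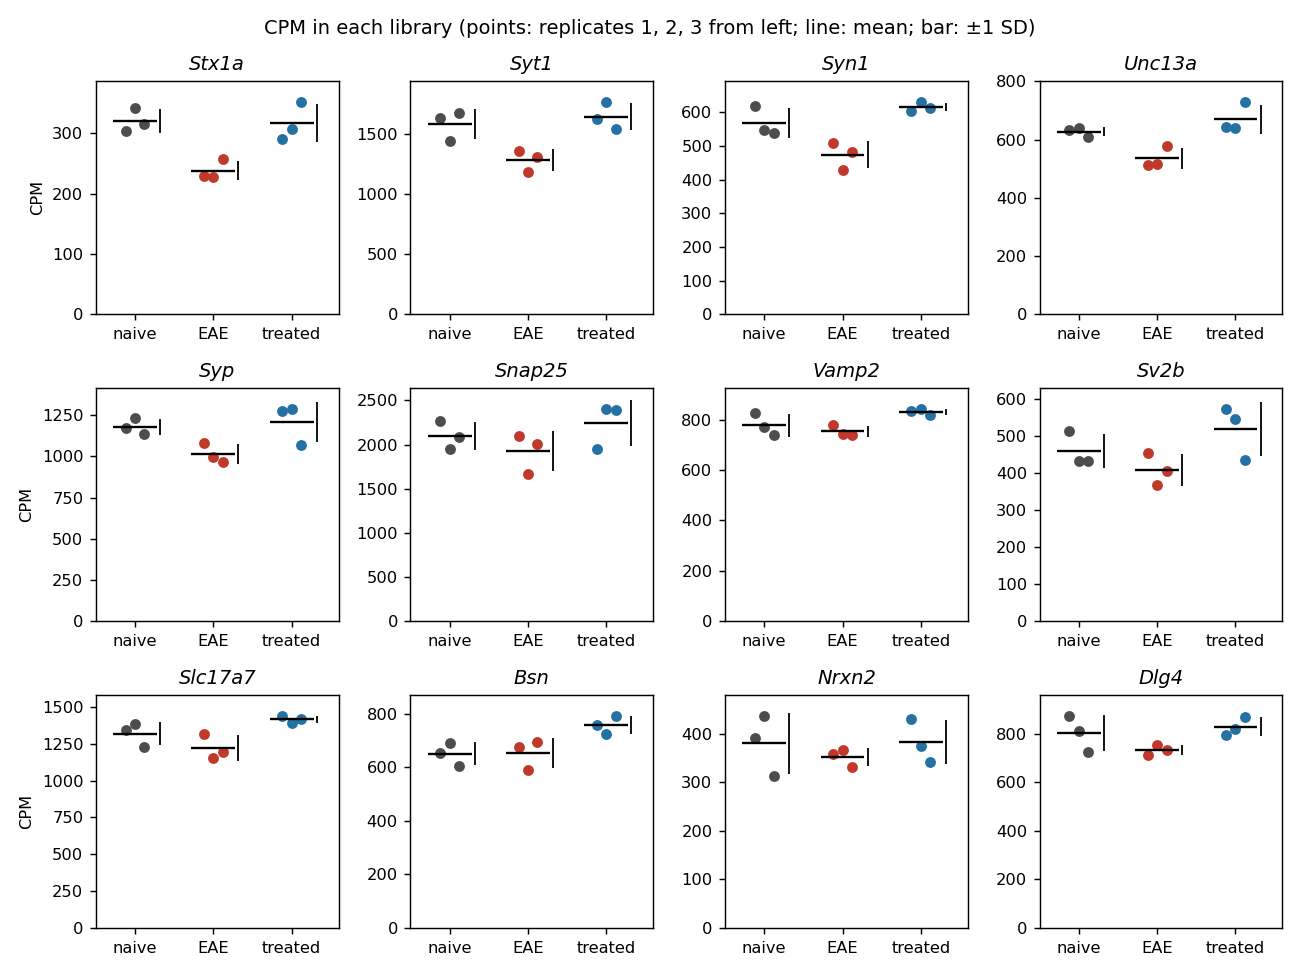
CPM of 12 genes in each library (axes from 0), with replicates 1, 2 and 3 from left to right in each group, the group mean as a line and ±1 SD as a bar, n = 3. For Stx1a, Syt1, Syn1 and Unc13a every EAE point lies below every naive and treated point, a pattern not counted over all genes.

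At the active zone, Unc13a, which encodes the vesicle primer Munc13-1 (chromosome 8, 71624125 to 71671774), was at 632, 641 and 610.3 CPM in naive replicates 1, 2 and 3, 513, 516 and 577 CPM in EAE and 642, 638 and 728 CPM in treated EAE. Each EAE library was below each naive and treated library, with log2 fold changes of -0.23 in EAE against naive (SE 0.0793, edgeR adjusted p = 0.192) and 0.32 in treated against untreated EAE (SE 0.0793, edgeR adjusted p = 0.130). Exons of Unc13a share 495 bases with Colgalt1 on the opposite strand, and no strand setting is given. Bsn, the large scaffold protein bassoon (chromosome 9, 108096022 to 108190419), was the exception in EAE. It was at 654, 691 and 605 CPM in naive, 673, 589.7 and 694 in EAE and 759, 724 and 792 in treated EAE. The naive and EAE values overlapped, and the treated values were above both, with log2 fold changes of 0.01, 0.22 in treated against untreated EAE (edgeR adjusted p = 0.272) and 0.22 in treated against naive (95% interval 0.03 to 0.41, edgeR adjusted p = 1.00).

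Pclo, the related scaffold piccolo, had means of 322 ± 46.9, 296 ± 38.1 and 359 ± 23.5 CPM, with treated above EAE without overlap (log2 fold change 0.28, SE 0.125). Of the RIM genes, which link vesicles to calcium channels, Rims1 was at 271, 345 and 306 CPM in naive, 280.3, 268 and 247 in EAE and 300.3, 257 and 406 in treated EAE. Its highest value was in treated replicate 3 and its lowest in EAE replicate 3. Rims2 had means of 128 ± 3.80, 126 ± 3.70 and 127 ± 13.8 CPM, with a 95% interval of -0.20 to 0.16 in EAE against naive.

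For the adhesion genes, all 5 were below 0 in EAE against naive, between -0.20 and -0.11, and above 0 in treated against untreated EAE, between 0.12 and 0.20. Nrxn3, a presynaptic neurexin, was at 245, 234 and 220.5 CPM in naive, 209.7, 210.2 and 189 in EAE and 229, 244 and 201 in treated EAE, with EAE below naive without overlap (log2 fold change -0.20, edgeR adjusted p = 0.290). Nrxn2 was at 391, 437 and 313 CPM in naive, 358, 367 and 332 in EAE and 432, 376 and 341 in treated EAE, and its groups overlapped. Nlgn2, the neuroligin of inhibitory synapses, was at 322, 317 and 291 CPM in naive, 286, 281 and 287 in EAE and 335, 331 and 289 in treated EAE. The 3 EAE values of Nlgn2 spanned 6.23 CPM and lay below all 6 other values, by 1.67 CPM at the closest. Nlgn1 had means of 82.1 ± 6.47, 73.3 ± 4.51 and 84.2 ± 17.6 CPM and Nlgn3 of 71.2 ± 4.71, 65.1 ± 4.28 and 73.8 ± 13.3 CPM.

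The EAE and naive values of all 6 postsynaptic scaffolds overlapped, where 11.8% of all genes were lower and 12.2% higher without overlap, shares too small for 6 genes to be read against. Dlg4, which encodes PSD-95, was at 873, 811 and 723 CPM in naive replicates 1, 2 and 3, 712, 751 and 731 CPM in EAE and 794, 819 and 869.8 CPM in treated EAE. Its treated values were above its EAE values without overlap (log2 fold change 0.18, SE 0.0818, edgeR adjusted p = 0.342). Shank1, a scaffold of excitatory synapses, was at 657, 761 and 725 CPM in naive, 584, 549 and 799 in EAE and 739, 678 and 979 in treated EAE. Replicate 3 was the highest of its group in both EAE and treated EAE, and the 95% interval was -0.53 to 0.23 in EAE against naive. Shank2 had means of 280.2 ± 23.9, 251 ± 23.2 and 298 ± 24.5 CPM (log2 fold change 0.25 in treated against untreated EAE, 95% interval 0.03 to 0.46). Shank3 (328 ± 36.5, 324 ± 19.4 and 333 ± 29.9 CPM) and Dlgap1, a PSD-95 binding protein (522 ± 35.4, 509 ± 33.0 and 526 ± 47.7 CPM), differed by less than the spread between libraries. Homer1, which has a short form induced by neuronal activity, was at 159.5, 121 and 117 CPM in naive, 114, 105 and 154 in EAE and 116, 120.2 and 128 in treated EAE. Its counts do not separate the short from the long form, and its groups overlapped.

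Summed over roles, the 8 vesicle protein genes were at 5435, 5122 and 5218 CPM in naive, 4826, 4265 and 4479 in EAE and 5820.4, 5815 and 4955 in treated EAE. Each EAE sum was below each other sum. This also held for the active zone, at 2034, 2072 and 1997 CPM in naive, 1925, 1751 and 1947 in EAE and 2166, 2122 and 2416 in treated EAE. Abundant members weigh most in such sums. Of the vesicle proteins, Syt1 had means of 1588 CPM in naive and 1285 in EAE, and Syp of 1178 and 1014. At the active zone these means were 628 and 535 for Unc13a, 307 and 265 for Rims1, 322 and 296 for Pclo, 650 and 653 for Bsn and 128 and 126 for Rims2. Sums of other gene sets were not compared in this way. In the other 4 roles EAE and naive sums overlapped. The SNAREs and complexins were at 4851 to 5299 CPM in naive and 4501 to 4873 in EAE, the adhesion genes at 975 to 1134 and 940.5 to 1001, and the transporters at 1307 to 1467 and 1257 to 1417. The scaffolds were at 2797, 2877 and 2665 CPM in naive, 2456, 2467 and 2828 in EAE and 2849.5, 2681 and 3186 in treated EAE. The median log2 fold change in EAE against naive was -0.15 for vesicle proteins, -0.11 for SNAREs and complexins, -0.12 for the active zone, -0.13 for adhesion and -0.11 for scaffolds. In treated against untreated EAE these medians were 0.26, 0.17, 0.28, 0.16 and 0.11. Differences between roles were not tested.

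Some members varied widely within every group. Sv2c, the Sv2 form of basal ganglia neurons, was at 25.1, 10.9 and 11.1 CPM in naive, 15.8, 23.0 and 8.20 in EAE and 14.7, 23.4 and 9.30 in treated EAE. Naive replicate 1, EAE replicate 2, treated replicate 2 and EAE replicate 1 had the 4 highest levels of Sv2c and also of Slc32a1. The same 4 libraries had the highest sums of 11 striatal markers, at 2175, 1837, 1442 and 1284 CPM, while the other 5 were between 315 and 707 CPM. None of the 11 was at 0 in any library. The SD of Sv2c was large in each group, at 51.9% of the mean in naive, 47.2% in EAE and 45.1% in treated EAE, where the median member had 7.76%, 6.75% and 9.71%. The 95% interval of Sv2c in EAE against naive ran from -1.14 to 1.12, so changes of either sign within these limits were not excluded. The part of tissue make-up in these values was not tested.

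Within the treated group the libraries differed in myelin. Treated replicate 1 had the lowest myelin marker sum of the 9 libraries and the highest levels of Syn2, Nlgn1 and Nlgn3. In Nlgn1 this was 100.2 CPM, against 65.4 CPM in treated replicate 3, which had the highest myelin sum and the lowest levels of all 3 genes. Shank1, Rims1 and Cplx1 were highest in treated replicate 3, at 979, 406 and 713 CPM. These genes were picked after their values were seen, and the part of myelin content in their values was not tested. None of the 10 myelin markers was at 0 in any library.

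**Figure D5:**
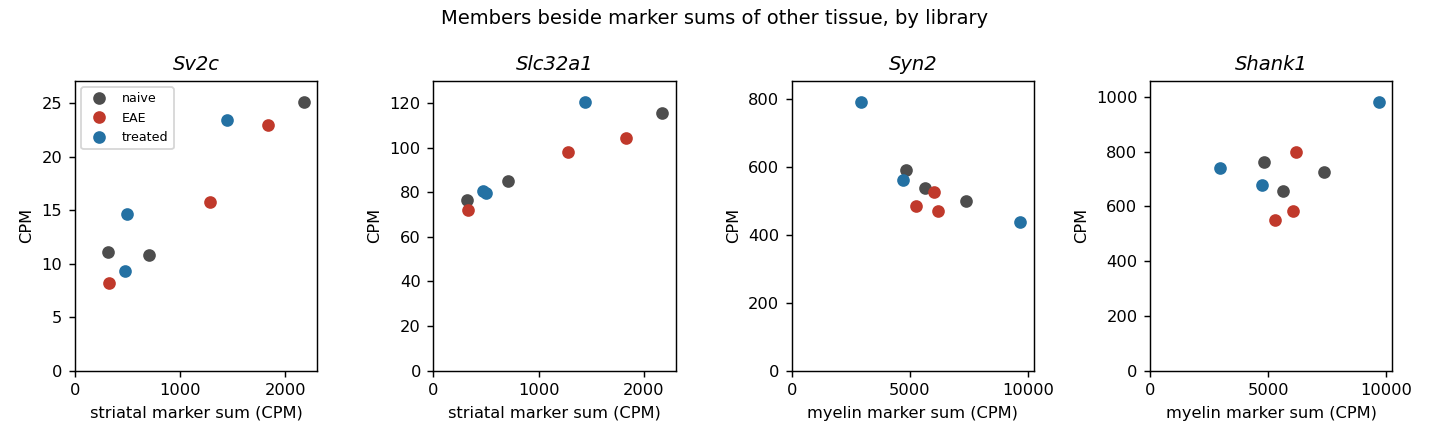
CPM of Sv2c and Slc32a1 against the summed CPM of 11 striatal markers, and of Syn2 and Shank1 against that of 10 myelin markers, 1 point a library, axes from 0. Sv2c and Slc32a1 are highest in the 4 libraries with the highest striatal sums, which come from all 3 groups, and Syn2 is highest where the myelin sum is lowest.

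The wider synaptic gene set was read from a list of 81 other genes of the same machinery, all of them tested. In EAE against naive 65 of 81 were below 0, with a median log2 fold change of -0.11, and by edgeR 1 passed, lower (1.23%, against 0.252% of all genes), and 0 passed higher. The gene that passed was Lin7b, which encodes a PDZ protein that binds CASK and Mint proteins. Lin7b was at 45.1, 37.6 and 40.5 CPM in naive replicates 1, 2 and 3, 29.2, 28.1 and 29.4 CPM in EAE and 36.7, 43.3 and 40.2 CPM in treated EAE. Every EAE value was below every other value, and Lin7b fell by 0.51 on the log2 scale (SE 0.0888, edgeR adjusted p = 0.0342). The call held in 6 of 13 settings, and in none of the 6 that left out a library of the compared groups (edgeR adjusted p from 0.0566 to 0.142). In treated against untreated EAE Lin7b was 0.47 higher (SE 0.0887), with edgeR adjusted p = 0.0851.

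At an unadjusted p under 0.05 there were 16 of 81 in EAE against naive, all lower, against 6.97% of all genes lower, and 21 lay below naive without overlap, against 11.8% of all genes. The next smallest p-values belonged to Dlgap2, a scaffold gene (-0.28, edgeR adjusted p = 0.100), Doc2a, a calcium-binding release protein (-0.44, 0.119), and Snap91, a clathrin adaptor of vesicle recycling (-0.25, 0.132). DESeq2 called these 3 with Lin7b and Syt7, 5 of 81, where it called 1.77% of all genes lower. In treated against untreated EAE 66 of 81 were above 0 (median 0.14) and 0 passed by edgeR, with 16 higher and 2 lower, Unc13c and Homer3, at an unadjusted p under 0.05, against 7.43% and 7.65% of all genes. DESeq2 called 8 of 81 higher, where it called 1.8% of all genes higher. Lin7b was followed by Snap91 (0.34, edgeR adjusted p = 0.0948), and Doc2a had a value of 0.47 (edgeR adjusted p = 0.143). In treated against naive 0 of 81 passed and 0 had an unadjusted p under 0.05, Dlgap2 (-0.12), Erc1 (0.15), Rab3b (0.18) and Cacna1b (0.12) having the smallest.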

How the data were processed

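Poly(A) RNA of 9 mouse cortex samples was sequenced on an Illumina HiSeq, per the labels' protocols, which describe no marking of strand. Reads were checked with FastQC (version 0.11.8) and trimmed with fastp, and the build was mm10 (GRCm38), per the submitters' processing notes. Alignment used Hisat2 and quantification bowtie2, per the series' design text, and the sources used here name no annotation or counting options. Raw counts for 34714 gene symbols were deposited by the authors, with column names that equal sample titles. Another 9 columns name no sample used here and were left out.

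Counts were fitted with edgeR 4.0.16 in R 4.3.3 (filterByExpr, TMM, estimateDisp, robust glmQLFit, glmQLFTest) over all 9 libraries, with group as the only factor and 6 residual degrees of freedom. Benjamini-Hochberg adjustment covered the 18644 tested genes, and calls needed an adjusted p under 0.05. SE was taken as |log2 fold change| over the root of F. The fit was tested on simulated data, but its recovery of changes as small as those of the members is not given here. Alternatives were DESeq2 1.42.0, other scalings, no filter, the compared groups only, a replicate block, and each library left out. Titles number the replicates without saying what they share. Between EAE and treated libraries, same-numbered samples deviated together (r = 0.17, 0.24 and 0.24), but the tests reported above use no pairing. With the replicate block in edgeR, 13 members had an unadjusted p under 0.05 in treated against untreated EAE, where the main fit had 11. The smallest adjusted p of a member was then 0.0805, against 0.102 in the main fit.

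All members are named. Values by library are given for the 4 members with the smallest p in each comparison and for the first of each role. Syn2, Slc32a1, Sv2c, Rims1, Nrxn3, Nlgn2, Shank1, Homer1 and, of the other synaptic genes, the names Syt7, Unc13c and Homer3 were added after their values were seen. Other synaptic genes are named where they passed or were among the 4 smallest p, except 1 that is not reported here. The members and lists were chosen with earlier results of these data known. Exons of 16 members overlap another gene in GENCODE M21, in 14 on the opposite strand, and Nlgn3 shares 3823 bases with Gm21986 on its own strand.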

Additional observations from a re-analysis of the deposited data

How the results depend on the processing

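No called value changed sign under any alternative, but in the main fit Lin7b in EAE against naive was the only call in the 2 lists. Several members that were not called did change sign between settings. In EAE against naive the values ran from -0.04 to 0.07 for Bsn, from -0.08 to 0.0018 for Vamp2 and from -0.27 to 0.07 for Homer1. Over the 12 alternatives of each comparison, the members' median log2 fold change ran from -0.17 to -0.09 in EAE against naive, 0.17 to 0.21 in treated against untreated EAE and 0.03 to 0.09 in treated against naive, and another scaling moved the median of all genes by at most 0.03. Members below 0 numbered 25 to 30 in EAE against naive, and members above 0 numbered 28 to 30 in treated against untreated EAE. Counts of calls did depend on the test. For EAE against naive, members called lower numbered 2 with DESeq2, 1 without the filter on low counts and 1 with the replicate block, against 0 in the report, and other synaptic genes called lower numbered 5 with DESeq2 and 0 with the replicate block, against 1. When each library was left out in turn, other synaptic genes called lower numbered 0 in all 6 cases, and members called numbered 0. For treated against untreated EAE, DESeq2 called 4 members and 8 other synaptic genes higher, against 0 and 0. Over all genes, EAE against naive gave 184 calls, 1041 with DESeq2, and as few as 2 without naive replicate 1 (7 without naive replicate 2, 19 without naive replicate 3, 34 without EAE replicate 2 and 52 without EAE replicate 3), but 252 without EAE replicate 1. For treated against untreated EAE the 41 calls became 688 with DESeq2, 3 with the compared groups only and 4 to 38 with a library left out. The cause was not tested. Deviations of same-numbered libraries correlated at r of 0.05, 0.11 and 0.36 between EAE and naive. Between treated and naive these values were -0.25, -0.12 and 0.20, and in both comparisons not every library correlated best with its own number. With the replicate block, calls over all genes numbered 238 in EAE against naive and 46 in treated against untreated EAE. In EAE against naive the block gave Stx1a an adjusted p of 0.0442 and Lin7b one of 0.0505 (edgeR), and it changed no other call among the members or the other synaptic genes. With 3 libraries a group, the 95% interval of the median member spanned 0.22 on the log2 scale to either side.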
